A study of Mus musculus with 199 samples.

Results

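The 10 genes followed here belong to the Rb and p53 tumour suppressor pathways: the pocket protein genes Rb1, Rbl1 and Rbl2, the transcription factor gene E2f1, the inhibitor locus Cdkn2a, Trp53, Mdm2, Cdkn1a, and the acetyltransferase genes Crebbp and Ep300. They were chosen by symbol, and all 10 were found among the 31581 genes of the deposited table. RNA-seq was done on small-cell lung cancer cells of the mouse line KP1, taken 10 cells at a time by laser capture from spheroids or from colonies in mouse liver, and on cells of a pre-cancerous line, RPC. Spheroids of KP1 gave 28 libraries of 10 cells, KP1 colonies in nude mice 33, KP1 colonies in F1 mice 31, and RPC spheroids 24. Pool-and-split controls, which are libraries of the same size split from pooled captures, numbered 20, 35 and 24 for KP1 spheroids, nude liver and F1 liver. Whole spheroids of KP1, KP2, KP3 and KP5 gave 1 bulk library each by another protocol.

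Every line studied lacks Rb1 and Trp53 by its label, so no library is a wild-type control for either loss. KP1 is given as Rb1-/-Trp53-/-, KP2 as also carrying Ptch1+/lacz, KP3 Axin2+/lacz, and KP5 the BAT-GAL transgene. RPC is given as Rb1-/- and Trp53-/- with 1 copy of p130 lost (p130-/+; p130 is the product of Rbl2) and with both copies of Crebbp lost. Nude mice lack a functional thymus and so are short of T cells, but keep B cells and natural killer cells, and the series' design calls the other hosts immunocompetent. Neither the age of the mice nor how many animals, cultures or pools the libraries came from is given in the sources used here. The p-values therefore cover the spread between captures, not between animals or cultures. RPC differs from KP1 in more than its added deletions, being another line at another disease stage, and these cannot be told apart.

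The retinoblastoma protein and its relatives p107 (Rbl1) and p130 (Rbl2) hold E2F transcription factors inactive until cyclin-dependent kinases phosphorylate them, and E2F1 drives genes of S phase. The Cdkn2a locus encodes the kinase inhibitor p16 INK4A, which acts through Rb, and the p19 ARF protein, which blocks MDM2, the ubiquitin ligase that degrades p53. When active, p53 induces Cdkn1a, which encodes the kinase inhibitor p21, and Mdm2 itself, while the acetyltransferases CBP (Crebbp) and p300 (Ep300) act as coactivators of E2F and p53 and acetylate histones. Both acetyltransferase genes are recurrently mutated in small-cell lung cancer.

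Promoter windows of RefSeq, on GRCm38.p6, were found for 9 of the 10 genes, 11 windows in all, each reaching from 250 bases before to 50 after a start. Rb1 was not matched. The windows of E2f1, Crebbp and Ep300, and the downstream ones of Cdkn2a and Cdkn1a, lie inside the gene bounds of the deposited table. The lack of a match in them does not describe the bases before the outer gene end. An E2F motif was searched on both strands as TTTGGCGC, TTTCGCGC, TTTCCCGC or TTTGCCGC, and a p53 motif as a pair of p53 half-sites at most 13 bases apart. The E2F letters were found in 2 of the windows, those of Rbl1 and of the upstream start of Cdkn2a, and in 2.265% of 32851 promoter windows. The p53 motif was found in 1 window, at the upstream start of Cdkn1a and not at its other start, and in 0.07306% of all windows. The 3 windows with a match are shown for the 250 bases before the start, since they hold the E2F or p53 letters searched. Capitals mark the E2F letters in Rbl1 (chr2:157204535-157204784, minus strand) and Cdkn2a (chr4:89294620-89294869, minus strand), and the p53 motif in Cdkn1a (chr17:29090729-29090978, plus strand).
Rbl1: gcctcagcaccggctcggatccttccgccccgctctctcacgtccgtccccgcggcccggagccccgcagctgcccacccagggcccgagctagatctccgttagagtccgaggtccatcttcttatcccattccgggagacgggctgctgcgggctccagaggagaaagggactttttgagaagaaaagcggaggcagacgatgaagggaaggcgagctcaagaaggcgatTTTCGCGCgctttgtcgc
Cdkn2a: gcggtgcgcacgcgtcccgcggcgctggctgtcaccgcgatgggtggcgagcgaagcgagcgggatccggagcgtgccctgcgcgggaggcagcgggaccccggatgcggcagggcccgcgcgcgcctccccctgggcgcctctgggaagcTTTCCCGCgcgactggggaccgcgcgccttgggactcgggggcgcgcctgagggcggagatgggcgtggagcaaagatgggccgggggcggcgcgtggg
Cdkn1a: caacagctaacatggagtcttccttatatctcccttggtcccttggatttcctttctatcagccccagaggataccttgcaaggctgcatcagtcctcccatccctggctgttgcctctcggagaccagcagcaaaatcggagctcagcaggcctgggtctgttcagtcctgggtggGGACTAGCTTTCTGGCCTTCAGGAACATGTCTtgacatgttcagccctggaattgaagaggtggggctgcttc
The letters begin 18 bases before the start in Rbl1, 99 before the upstream start in Cdkn2a and 73 before the upstream start in Cdkn1a, where the motif spans 32 bases. A match describes these letters only, and no binding was measured. In Cdkn1a the capitals hold a half-site at each end, with other bases between. The bases directly after the capitals resemble a half-site but were not part of the match. The capitals therefore need not be the stretch that p53 reads. The levels of these 3 genes follow under their roles.

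Gene totals ran from 718208 to 7557773 counts per captured library and from 17266200 to 42447973 in the bulk libraries. Neuroendocrine markers were present in every captured group, with at least 14 of 15 list genes counted, and their summed level had a median of 1813 to 3872 CPM over the groups, where CPM scales each library's counts to a shared total. The sum had a median of 3225 CPM in KP1 spheroid captures and 2032 in nude liver, where 0 of 12 tested neuroendocrine genes were higher and 8 lower (median log2 fold change -0.81). In F1 liver against spheroids 1 of 11 was higher and 4 lower, and in RPC against KP1 3 of 13 and 6, beside 34.1% (nude), 12.6% (F1) and 21.9% (RPC) called over all genes. The part of this in the results on the members was not tested. Hepatocyte markers summed to a median of 0.739 CPM in KP1 spheroid captures, with Alb and 7 more of 13 genes at 0, but to 843 CPM (range 3.22 to 5070) in nude liver and 195 CPM (range 0 to 1510) in F1 liver, with all 13 counted. Of the KP1 spheroid captures, 9 had at least 0.1% of counts from ERCC spike-in transcripts and 19 had less, whereas 22 of 24 RPC libraries and all liver libraries had at least 0.1%. The labels name no batch that would go with this. Of the host cell markers that could be tested against spheroids, 4 of 4 hepatocyte, 3 of 3 erythrocyte, 2 of 3 endothelial and stellate and 0 of 1 macrophage genes were higher in nude liver, and 4 of 4 erythrocyte, 0 of 2 and 0 of 1 in F1 liver, where no hepatocyte gene passed the filter. The summed medians in spheroids, nude liver and F1 liver were 0, 551 and 1622 CPM for 6 erythrocyte genes, 13.6, 52.2 and 60.9 for 12 macrophage genes, and 67.8, 249.5 and 144 for 12 endothelial and stellate genes, while those for 11 T and natural killer cell genes were at most 0.353 CPM. In RPC captures the endothelial and stellate genes summed to a median of 1.36 CPM, and the 1 that could be tested was lower than in KP1 spheroids.

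Differences called in more than 1 comparison of 10-cell captures lay in E2f1 and Ep300. E2f1 was higher and Ep300 lower in RPC than in KP1 spheroids and in nude liver than in spheroids, and E2f1 was also higher in F1 liver than in spheroids. Crebbp and Mdm2 were lower in RPC. These 3 comparisons use the same 28 KP1 spheroid libraries, so their results are not independent of each other. By edgeR (quasi-likelihood test, Benjamini-Hochberg adjusted p under 0.05 over all genes tested), 1 of 8 tested members was higher and 1 lower in nude liver than in spheroids, where 34.1% of all genes tested were called, 17.7% higher and 16.3% lower. In F1 liver against spheroids 1 of 8 was higher and 0 lower, with 12.6% of all genes called, 7.73% higher and 4.91% lower. In F1 against nude liver 0 of 7 tested members were called, with 19.2% of all genes called, 11.2% higher and 7.98% lower. In RPC against KP1 spheroids 1 of 8 was higher and 3 lower, with 21.9% of all genes called, 10.3% higher and 11.6% lower. The counts in the liver comparisons were near or under these backgrounds, and the 4 of 8 in RPC were above it, a difference that was not tested.

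Rbl1 and Rbl2 did not pass the filter on low counts in any of the 4 comparisons of 10-cell captures, nor did Cdkn1a in F1 against nude liver. The median log2 fold change of the tested members was -0.37, -0.37, 0.28 and -0.46 in the order above, beside -0.04, 0.22, 0.26 and 0.01 for all genes tested. With RLE scaling the calls over all genes in RPC were 1131 higher and 826 lower, against 882 and 999 here, and the median of all genes moved from 0.01 to 0.16. With limma-voom they were 2032 and 1049, with a median of 0.44. In F1 against nude liver the calls over all genes were 794 higher and 564 lower, but 667 and 684 with RLE scaling and 600 and 1151 with limma-voom.

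**Figure D1:**
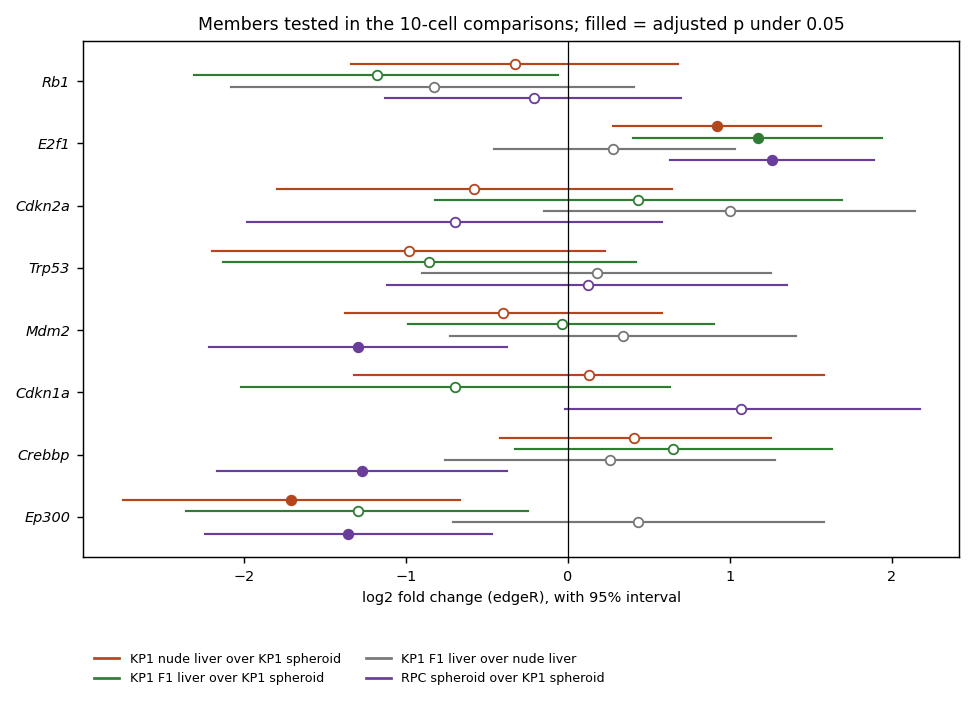
Log2 fold changes of the 8 members tested (vertical axis) in 4 comparisons of 10-cell captures, by edgeR. Points are estimates, lines span the 95% interval, and filled points have an adjusted p under 0.05. E2f1 lies right of 0 in the 3 comparisons with KP1 spheroids (0.92, 1.17 and 1.26) and Ep300 left of 0 (-1.71, -1.30 and -1.36), though the Ep300 value for F1 liver was not called.

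Rb1 (chr14:73183673-73325822, minus strand) encodes the retinoblastoma protein and is lost in every line by label. Its transcripts were nonetheless counted, at 2.50 to 85.1 CPM with a median of 19.4 in KP1 spheroid captures and 0 to 148 CPM with a median of 16.6 in RPC. The deposited values are sums per gene, which do not tell deleted exons from retained ones, so they do not check the knockout. Rb1 also overlaps Rcbtb2 (18.7 ± 20.5 CPM in KP1 spheroid captures) and Lpar6 on the other strand, and whether counting used strand is not given in the sources used here. The RPC and KP1 ranges overlapped, with 2 RPC captures above and 5 below the KP1 range, and a log2 fold change of -0.21 (SE 0.47, adjusted p = 0.791, edgeR). In nude liver captures Rb1 ran from 0 to 178 CPM with a median of 13.2, and in F1 liver from 0 to 56.0 CPM with a median of 4.81. Of the F1 liver captures, 25 of 31 lay under the spheroid median, yet the difference was not called (log2 fold change -1.18, SE 0.57, 95% interval -2.31 to -0.06 before adjustment, adjusted p = 0.169). Limma-voom called it (-2.41, adjusted p = 0.00111), and also Rb1 in nude liver (-1.39, adjusted p = 0.0203, against -0.33 and 0.657 by edgeR). The voom shift runs beside a lower median of all genes in F1 liver, -0.44 against 0.22 by edgeR, and 1329 lower and 414 higher calls against 359 and 565. The bulk lines held 148 (KP1), 193 (KP2), 143 (KP3) and 158 CPM (KP5), a span of 1.35-fold.

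Rbl1 (chr2:157145893-157204534, minus strand), the gene for p107, is a known E2F target. It was sparse in captures: the medians were 0.826 CPM in KP1 spheroids, 0 in nude and F1 liver and 0.962 in RPC, with highest values of 26.1, 29.5, 60.1 and 25.5 CPM. Counts were present in 19 of 28 spheroid, 14 of 33 nude liver, 7 of 31 F1 liver and 17 of 24 RPC captures. At a common depth of 718207 counts the numbers expected with a count were 12.8, 9.30, 5.58 and 11.9, so part of these counts of libraries turns on depth. In F1 liver pools 1 library, number 8, held 536 CPM and made 90.4% of the group's summed CPM. The bulk lines had 135 (KP1), 103 (KP2), 94.1 (KP3) and 49.5 CPM (KP5), and KP5 was lowest.

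Rbl2 (chr8:91070057-91123844, plus strand), the gene for p130, was the sparsest of the 10. Its median was 0 CPM in all 7 captured groups. Single libraries carried the group means: number 20 of the KP1 spheroid captures, at 75.1 CPM, made 85.0% of the group's summed CPM, and number 21 of the F1 liver captures, at 79.8 CPM, made 92.4%. Counts appeared in 7 of 28 KP1 spheroid and 11 of 24 RPC captures, and at the common depth 4.72 and 6.50 were expected. RPC has lost 1 copy by its label. In the fit with no filter on low counts the log2 fold change of RPC over KP1 was -1.11 (SE 1.01, 95% interval -3.08 to 0.87, adjusted p = 0.408, edgeR), and was not called. The order of the means turns on capture 20: they were 3.16 CPM in KP1 and 1.59 in RPC, but 0.491 and 0.689 without the highest library of each group, a comparison chosen after seeing the data. Rbl2 overlaps Aktip on the other strand, which had 11.9 ± 44.8 CPM in KP1 spheroid captures. The 4 bulk lines, none of which has a Rbl2 deletion in its label, were close together at 41.6 (KP1), 52.3 (KP2), 54.6 (KP3) and 46.7 CPM (KP5).

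**Figure D2:**
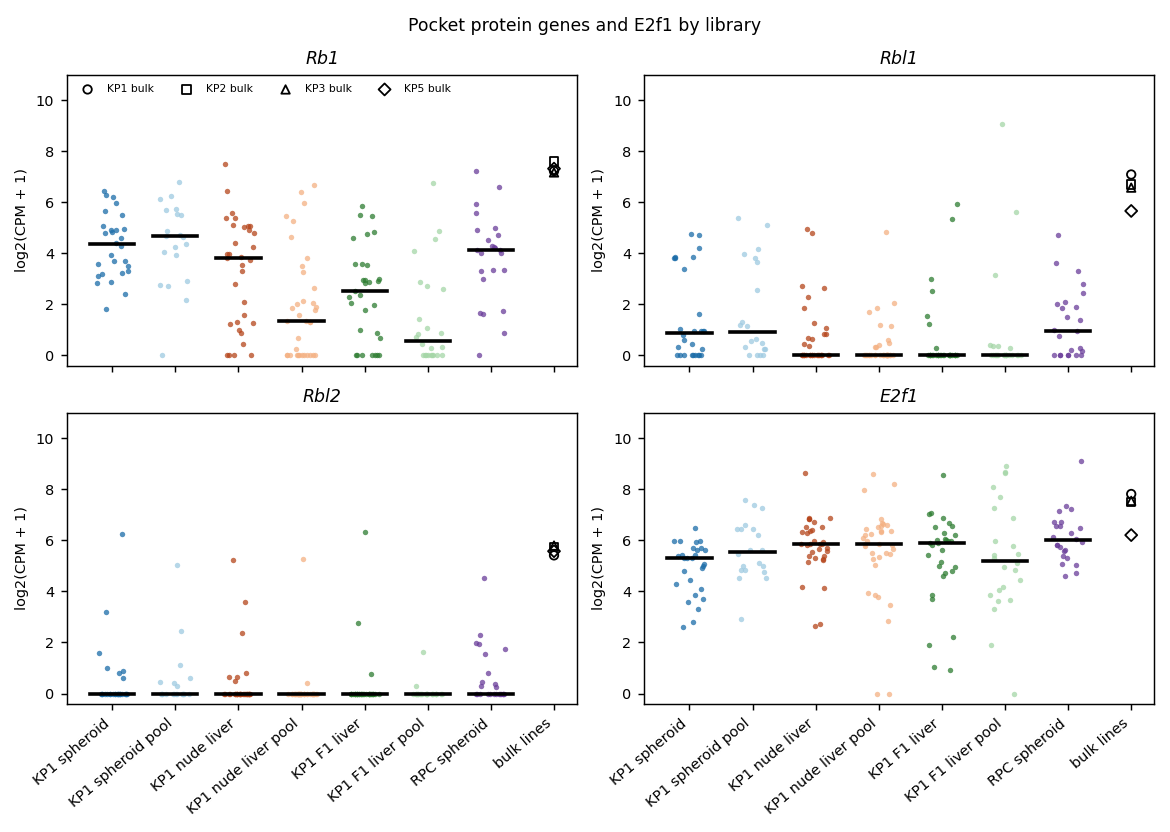
Log2(CPM + 1) of Rb1, Rbl1, Rbl2 and E2f1 in each library (vertical axes) of the 7 captured groups and the 4 bulk lines (horizontal axis). Points are libraries, black lines are group medians, and open symbols are single bulk libraries. Most captures hold no Rbl2 count, with a median of 0 CPM in every captured group, while E2f1 was counted in all 28 KP1 spheroid and all 24 RPC captures.

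E2f1 (chr2:154559407-154569892, minus strand) encodes the E2F factor that Rb restrains, and it activates its own gene. In KP1 spheroid captures it ran from 5.03 to 89.6 CPM with a median of 38.6, and in RPC from 23.4 to 558 CPM with a median of 63.1. The groups overlapped, but 20 of 24 RPC captures lay above the KP1 median and 8 above the highest KP1 capture. The means were 92.4 ± 106 CPM (SD, n = 24) and 36.0 ± 20.8 CPM (SD, n = 28), a log2 fold change of 1.26 (SE 0.32, adjusted p = 0.00239, edgeR). Without the highest library, RPC number 16, the value was 0.81 (adjusted p = 0.0358). Against the 9 KP1 spheroid captures with at least 0.1% ERCC it was 0.91 (adjusted p = 0.195), and against the 19 others 1.43 with the call kept.

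In nude liver captures E2f1 ran from 5.23 to 393 CPM with a median of 57.1, and 26 of 33 lay above the spheroid median. The log2 fold change over spheroids was 0.92 (SE 0.33, adjusted p = 0.0231), but without the highest library, number 32, it was 0.68 and not called (adjusted p = 0.0757). In F1 liver it ran from 0.913 to 371 CPM with a median of 58.9, and 19 of 31 captures lay above the spheroid median while 4 lay below the lowest spheroid capture. The log2 fold change was 1.17 (SE 0.39, adjusted p = 0.0381), and without the highest library, number 14, it was 0.87 and not called (adjusted p = 0.12). F1 captures also fall into 2 classes by the pseudogene Rpl19-ps11, and the 26 with at least 100 CPM of it gave 1.4 (adjusted p = 0.0127) and the 5 others -0.01 (adjusted p = 0.995). Against the 9 spheroid captures with at least 0.1% ERCC, the class of all liver libraries, neither was called: nude gave 0.50 (adjusted p = 0.537) and F1 0.91 (adjusted p = 0.553), and against the 19 others nude gave 1.06 (adjusted p = 0.031) and F1 1.37 (adjusted p = 0.0592). Limma-voom called neither, at 0.66 (adjusted p = 0.0828) and 0.53 (adjusted p = 0.378). Both liver groups hold the host transcripts given above, and with a hepatocyte score as a covariate the values were 0.56 (adjusted p = 0.623) and 0.78 (adjusted p = 0.297). The part of the other host cell types in these values was not tested. In F1 over nude liver the log2 fold change was 0.28 (SE 0.38, adjusted p = 0.649).

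E2f1 had 224 (KP1), 180 (KP2), 186 (KP3) and 72.8 CPM (KP5) in bulk, so KP5 lay 3.08-fold under KP1. The pools had medians of 45.9 CPM in spheroids, 57.2 in nude liver and 36.1 in F1 liver. No pool comparison called it: the log2 fold change over spheroid pools was 0.52 (adjusted p = 0.447) in nude liver and 1.32 (adjusted p = 0.153) in F1 liver.

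Among 30 listed E2F target genes, which include E2f1 and Rbl1, genes were called in both directions, in nude and F1 liver against spheroids at shares close to the 34.1% and 12.6% over all genes. In nude liver against spheroids 3 of 27 tested were higher and 6 lower (median log2 fold change -0.60). Pcna, the sliding clamp of DNA polymerase, fell from 323 ± 134 to 72.6 ± 62.5 CPM (log2 fold change -2.40, adjusted p = 4.47e-08), and Cdk1, the mitotic kinase, and Rrm1, a subunit of ribonucleotide reductase, fell by 2.49 and 1.62 on the log2 scale. Uhrf1, an epigenetic regulator gene, rose there (2.44), from 5.18 ± 6.43 to 31.0 ± 109 CPM. Its medians were 3.03 and 7.34 CPM, so the fold change reflects a nude liver mean far above its median. In F1 liver against spheroids 1 of 27 was higher, E2f1 itself, and 2 lower (median -0.12), and Pcna was again lower, at 66.6 ± 65.1 CPM (-2.13, adjusted p = 3.13e-09). In RPC against KP1 3 of 28 were higher and 5 lower (median -0.21), beside 21.9% over all genes: Mcm6, part of the replicative helicase, rose from 608 ± 257 to 1210 ± 446 CPM (0.87, adjusted p = 0.00102), and Pcna fell to 167 ± 118 CPM (-1.17, adjusted p = 0.000194). In F1 against nude liver 5 of 25 were higher and 3 lower (median 0.56), beside 19.2% over all genes, with Rrm1, Rfc4 and Cdk1 higher (1.52, 2.18 and 1.83). E2f1 and these targets thus did not share 1 direction in the comparisons with spheroids.

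The wider Rb pathway list of 38 genes had 4 of 28 tested members higher and 3 lower in nude liver than in spheroids, 1 of 26 and 2 in F1 liver, and 2 of 27 and 3 in RPC, E2f1 being among the higher genes each time, at shares no higher than the 34.1%, 12.6% and 21.9% over all genes. Cdk4, the kinase that p16 INK4A inhibits, fell from 355 ± 184 CPM in KP1 spheroids to 166 ± 168 in nude liver (log2 fold change -1.12, adjusted p = 0.00501) and 142 ± 155 in RPC (-1.63, adjusted p = 3.82e-06). In F1 liver it stood at 335 ± 188 CPM, above nude liver (1.34, adjusted p = 0.00244). Cdkn2c, the inhibitor p18 INK4C, was lower in nude liver (-2.07, adjusted p = 0.0032) and in RPC (-2.76, adjusted p = 3.74e-05) than in KP1 spheroids. In RPC the histone deacetylase gene Hdac1 fell from 39.1 ± 28.1 to 5.99 ± 10.3 CPM (-2.83, adjusted p = 1.31e-06), and Rbbp7, which encodes a histone-binding partner of Rb, rose from 154 ± 104 to 463 ± 286 CPM (1.37, adjusted p = 9.20e-06).

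Cdkn2a (chr4:89274471-89294653, minus strand) was counted in RPC and in all 4 KP lines. GENCODE M21 lists 2 protein-coding transcripts there, ending at 89282192 and 89294653, and the deposited count sums them, so INK4A and ARF cannot be told apart. KP1 spheroid captures ran from 0 to 35.4 CPM with a median of 8.54, nude liver from 0 to 30.9 with a median of 5.99, F1 liver from 0 to 86.5 with a median of 5.62, and RPC from 0 to 38.6 with a median of 3.84. All 4 groups overlapped and reached 0. Counts were present in 22 of 28, 26 of 33, 29 of 31 and 21 of 24 captures, and at the common depth 19.3, 22.8, 24.0 and 18.5 were expected. The log2 fold changes over KP1 spheroids were -0.58 (95% interval -1.80 to 0.64, adjusted p = 0.503) in nude liver, 0.43 (-0.82 to 1.69, adjusted p = 0.715) in F1 liver and -0.70 (-1.98 to 0.58, adjusted p = 0.484) in RPC, none of them called by edgeR. In F1 over nude liver it was 1.00 (-0.15 to 2.14, adjusted p = 0.233), also not called, and 5 F1 captures lay above the highest nude liver capture.

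In bulk, Cdkn2a had 72.7 (KP1), 66.8 (KP2), 52.5 (KP3) and 162 CPM (KP5). KP5 was thus the highest line for Cdkn2a, 3.09-fold above KP3, while it was the lowest of the 4 for 6 of the 10 members. Bulk libraries cannot tell fewer expressing cells from less RNA per cell, and with 1 library per line no test was possible. Cdkn2b, the p15 INK4B gene next to it, was low: 1.33 (KP1), 0.989 (KP2), 0.132 (KP3) and 3.82 CPM (KP5) in bulk, 0 counts in the 28 KP1 spheroid captures, which allows up to 0.0241 CPM over the group for counting error only and lies under the KP1 bulk level by another protocol, and counts in 6 of 24 RPC captures, up to 9.95 CPM. Mtap, on the other side, had 12.0 ± 16.1 CPM in KP1 spheroid captures and 25.7 ± 31.0 in RPC, which differed by 0.76 on the log2 scale (SE 0.58, adjusted p = 0.378). The genes whose group means followed Cdkn2a most closely over the 11 groups, among 11012 genes whose mean reached 5 CPM, were Cand1, Rab1b and Dnaja2, with Pearson correlations of log2(CPM + 1) of 0.977, 0.972 and 0.965. The bulk and captured groups differ in protocol, which all genes share in this measure.

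Trp53 (chr11:69580359-69591873, plus strand) encodes p53 and is lost in every line by label. Low counts were nonetheless present: KP1 spheroid captures ran from 0 to 66.6 CPM with a median of 2.03, nude liver from 0 to 73.3 with a median of 2.02, F1 liver from 0 to 49.8 with a median of 1.46, and RPC from 0 to 35.3 with a median of 10.2. Of the RPC captures, 21 of 24 lay above the KP1 median, although the highest RPC capture lay inside the KP1 range. The means were 11.7 ± 8.82 CPM and 8.40 ± 16.3 CPM. EdgeR did not call the difference (log2 fold change 0.12, SE 0.63, 95% interval -1.12 to 1.35, adjusted p = 0.922), while limma-voom did (1.58, SE 0.62, adjusted p = 0.0396). In the bulk lines Trp53 had 12.1 (KP1), 19.7 (KP2), 19.1 (KP3) and 6.67 CPM (KP5). As for Rb1, sums per gene do not separate deleted from retained exons, and the processed pseudogene Trp53-ps had 0 counts in all libraries.

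Mdm2 (chr10:117688875-117710758, minus strand), both the brake on p53 and its target, was expressed in these lines, which lack Trp53 by label. It ran from 8.47 to 1184 CPM with a median of 95.6 in KP1 spheroid captures and from 0.290 to 543 with a median of 66.3 in RPC. Of the RPC captures 19 of 24 lay under the KP1 median, but the ranges overlapped. The means were 84.2 ± 111 CPM in RPC and 155 ± 222 CPM in KP1, a log2 fold change of -1.30 (SE 0.47, adjusted p = 0.0372, edgeR). Without KP1 spheroid capture 23, the highest, the value was -0.67 and not called (adjusted p = 0.26). In nude liver Mdm2 ran from 1.09 to 1542 CPM with a median of 62.7 (log2 fold change over spheroids -0.40, adjusted p = 0.571), and in F1 liver from 0 to 595 with a median of 90.4 (-0.04, adjusted p = 0.972). The bulk lines were alike, at 87.4 (KP1), 77.6 (KP2), 84.6 (KP3) and 77.3 CPM (KP5). Mdm2 was the 1 member whose KP1 bulk level lay under its capture mean, with a ratio of 0.565, while the median ratio was 3.35 over 10893 genes.

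Cdkn1a (chr17:29090979-29100722, plus strand), the p21 gene, is induced by p53 but has p53-independent inputs. Its level was low in KP1 spheroid captures, from 0 to 67.8 CPM with a median of 6.45, and ran from 0.372 to 65.6 CPM with a median of 16.8 in RPC. All 24 RPC captures and 25 of 28 KP1 captures held counts, and 17 of 24 RPC captures lay above the KP1 median. The means were 23.5 ± 22.1 CPM in RPC and 9.18 ± 12.9 CPM in KP1, with a log2 fold change of 1.07 (SE 0.56, 95% interval -0.02 to 2.17) that edgeR did not call (adjusted p = 0.17). DESeq2 called it (1.25, adjusted p = 0.0402), as did edgeR against the 19 KP1 captures with under 0.1% ERCC (1.79, adjusted p = 0.0368), whereas against the 9 others the value was 0.16 (adjusted p = 0.903).

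In the liver Cdkn1a was patchy, with counts in 17 of 33 nude and 19 of 31 F1 captures and medians of 0.302 and 1.10 CPM. The highest nude liver capture held 176 CPM and made 52.97% of its group's summed CPM, and pool 25 of nude liver held 1031 CPM. The log2 fold changes over spheroids were 0.13 (SE 0.74, adjusted p = 0.914) in nude liver, which limma-voom turned to -1.77 (adjusted p = 0.0249), and -0.70 (SE 0.67, adjusted p = 0.548) in F1 liver. The direction in nude liver thus depended on the method. The bulk lines had 89.3 (KP1), 65.8 (KP2), 73.1 (KP3) and 19.4 CPM (KP5), a 4.61-fold span and the widest of the 10 members. Mturn and Zbtb46 were among the genes that followed Cdkn1a most closely over the 11 groups, with Pearson correlations of 0.932 and 0.931.

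**Figure D3:**
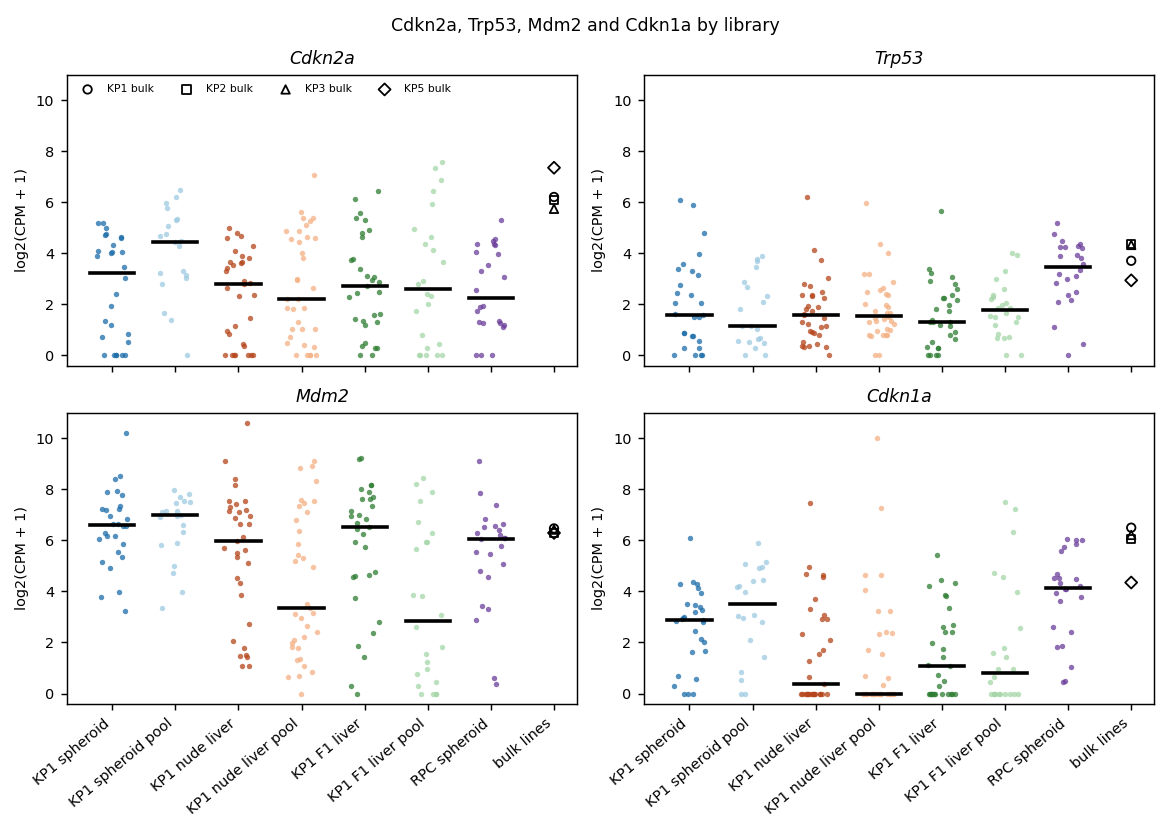
Log2(CPM + 1) of Cdkn2a, Trp53, Mdm2 and Cdkn1a in each library (vertical axes) of the 7 captured groups and the 4 bulk lines (horizontal axis). Points are libraries, black lines are group medians, and open symbols are single bulk libraries. RPC captures sit above the KP1 spheroid median in 21 of 24 cases for Trp53 and 17 of 24 for Cdkn1a, with overlapping ranges, and KP5 is highest of the bulk lines for Cdkn2a (162 CPM) and lowest for Cdkn1a (19.4 CPM).

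Listed p53 target genes, 30 including Cdkn1a and Mdm2, had calls in both directions in the 4 comparisons of 10-cell captures, at shares near those over all genes (34.1%, 12.6%, 21.9% and 19.2% in the order that follows). In nude liver against spheroids 4 of 18 tested were higher and 3 lower (median log2 fold change -0.45), in F1 liver 2 of 17 and 1 (median 0.10), in RPC 1 of 17 and 3 (median -0.14), and in F1 against nude liver 2 of 15 and 1 (median 0.34). Tnfrsf10b, a death receptor gene, had 4.30 ± 5.13 CPM in KP1 spheroids, 80.6 ± 113 in nude liver (log2 fold change 4.39, adjusted p = 1.37e-09), 13.1 ± 10.3 in F1 liver (1.96, adjusted p = 0.00317) and 22.6 ± 31.9 in RPC (2.66, adjusted p = 0.000182). Btg2, an antiproliferative gene, had 67.4 ± 60.0 CPM in KP1 spheroids and was lower in nude liver (14.3 ± 15.2 CPM, -2.42, adjusted p = 4.88e-06) and in RPC (27.5 ± 31.5 CPM, -1.33, adjusted p = 0.0164). Aen, an exonuclease gene, was higher than in spheroids in nude (2.95) and F1 liver (2.11). The means of the nude and F1 liver groups and of RPC are read against the same spheroid captures here too.

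Of 23 listed regulators of p53, 1 of 16 tested was higher and 3 lower in nude liver than in spheroids, 2 of 16 and 0 in F1 liver, 3 of 18 and 3 in RPC, and 1 of 16 and 2 in F1 against nude liver, beside 34.1%, 12.6%, 21.9% and 19.2% over all genes. Chek2, a checkpoint kinase gene that acts on p53, had 11.0 ± 17.3 CPM in KP1 spheroids, 165 ± 230 in nude liver (log2 fold change 4.06, adjusted p = 1.16e-10), 49.3 ± 35.1 in F1 liver (2.67, adjusted p = 1.13e-05) and 51.3 ± 112 in RPC (2.75, adjusted p = 0.000157). Npm1, whose product binds ARF in the nucleolus, was lower in nude liver (-0.74, adjusted p = 0.0338) and in RPC (-1.30, adjusted p = 0.000127). Chek1 was called lower in RPC (-6.37, adjusted p = 0.000186) with a mean of 133 ± 663 CPM in KP1, but its medians were 1.17 CPM in RPC and 0.941 in KP1, so the fold change reflects a KP1 mean far above its median.

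Crebbp (chr16:4081328-4213997, minus strand) encodes CBP and is lost in RPC by its label. Its counts were present in all 24 RPC captures, from 0.132 to 138 CPM with a median of 15.6, beside 5.28 to 131 CPM with a median of 26.7 in KP1 spheroids. Of the RPC captures 17 of 24 lay under the KP1 median and 7 under the lowest KP1 capture, but RPC number 10 lay above every KP1 capture. The means were 21.7 ± 28.4 CPM and 40.5 ± 34.1 CPM, a log2 fold change of -1.27 (SE 0.46, adjusted p = 0.0351, edgeR). Without RPC number 10 it was -1.70 (adjusted p = 0.00341), and it was not called with RLE scaling (-1.08, adjusted p = 0.0756) or against the 19 KP1 captures with under 0.1% ERCC (-1.33, adjusted p = 0.0604). Sums per gene again do not show which exons were read.

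In KP1 liver colonies, where Crebbp is intact by the label, it ran from 0.993 to 337 CPM with a median of 29.9 in nude mice and from 0 to 365 with a median of 25.6 in F1 mice. These medians lay on both sides of the spheroid median of 26.7, and the log2 fold changes over spheroids were 0.41 (SE 0.43, adjusted p = 0.481) and 0.65 (SE 0.50, adjusted p = 0.421). The bulk lines had 137 (KP1), 84.6 (KP2), 155.5 (KP3) and 70.3 CPM (KP5). In the pools it was not called either (-0.39 in nude liver and 0.76 in F1 liver, adjusted p = 0.633 and 0.557). F1 liver pool 25, at 1023 CPM, made 54.2% of its group's summed CPM.

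Ep300 (chr15:81585351-81652077, plus strand), the paralog that encodes p300, was lower in RPC as well, although no label gives a deletion of it. It ran from 3.58 to 56.6 CPM with a median of 12.4 in KP1 spheroid captures and from 0.188 to 31.9 with a median of 5.01 in RPC, where 21 of 24 lay under the KP1 median. The means were 7.72 ± 8.49 CPM in RPC and 16.0 ± 12.3 CPM in KP1, a log2 fold change of -1.36 (SE 0.45, adjusted p = 0.0221), and -1.24 (adjusted p = 0.0362) without KP1 spheroid capture 4, the highest. Against the 9 KP1 captures with at least 0.1% ERCC the value was -1.29 and not called (adjusted p = 0.152).

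In nude liver Ep300 ran from 0 to 29.2 CPM with a median of 1.51, and in F1 liver from 0 to 29.1 with a median of 2.34. In nude liver 28 of 33 captures lay under the spheroid median and 17 under the lowest spheroid capture, and the log2 fold change was -1.71 (SE 0.53, adjusted p = 0.00883). Ep300 would not have passed the filter on low counts there without the spheroid captures, where it is higher. The edgeR fit with no filter gave -1.77 (adjusted p = 0.0074). In F1 liver 25 of 31 lay under the spheroid median and 20 under the lowest spheroid capture, with -1.30 (SE 0.54, adjusted p = 0.0988). DESeq2 called the difference (-1.18, adjusted p = 0.0488), as did limma-voom (-2.33, adjusted p = 0.000576). The limma-voom value runs beside a lower median of all genes in F1 liver, -0.44 against 0.22 by edgeR. With the hepatocyte covariate the nude liver value was -1.71 with an SE of 1.32 and not called (adjusted p = 0.433), and against the 9 spheroid captures with at least 0.1% ERCC -1.69 with an SE of 0.80 (adjusted p = 0.132). The size of the nude liver difference therefore changed little in these fits while its error grew. In F1 over nude liver the value was 0.43 (SE 0.58, adjusted p = 0.652).

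Pools had 1.19 to 33.3 CPM of Ep300 with a median of 6.73 in spheroids, 0 to 187 with a median of 0.817 in nude liver and 0 to 9.59 with a median of 0.197 in F1 liver. In F1 liver pools 23 of 24 lay under the spheroid pool median, and Ep300 was the 1 member of 8 tested that was called (-2.45, SE 0.69, adjusted p = 0.013), where 11.6% of all genes were called. With an F1 pool median of 0.197 CPM, Ep300 would not have passed the filter there without the spheroid pools, where it is higher. The fit with no filter gave -2.50 (adjusted p = 0.0192). Pools are splits of mixed material, so these p-values cover technical spread. The call was lost against spheroid pools with at least 0.1% ERCC (-2.94, adjusted p = 0.274) or under it (-2.24, adjusted p = 0.0602), and with the F1 pools of low Rpl19-ps11 (-2.37, adjusted p = 0.178). In nude liver pools 0 of 8 members were called, with 25.6% of all genes called, and Ep300 stood at 0.83 (SE 0.83, adjusted p = 0.507), with 24 of 35 pools under the spheroid pool median but 2 above 100 CPM. All calls in nude liver pools split into 1323 higher and 731 lower, with RLE scaling into 1168 and 995, and with DESeq2 into 1363 and 1510. In F1 against nude liver pools 0 of 5 members were called, with 12% of all genes called. The bulk lines had 218 (KP1), 127 (KP2), 214 (KP3) and 131 CPM (KP5), and KP1 bulk was 13.6-fold above the capture mean by another protocol.

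**Figure D4:**
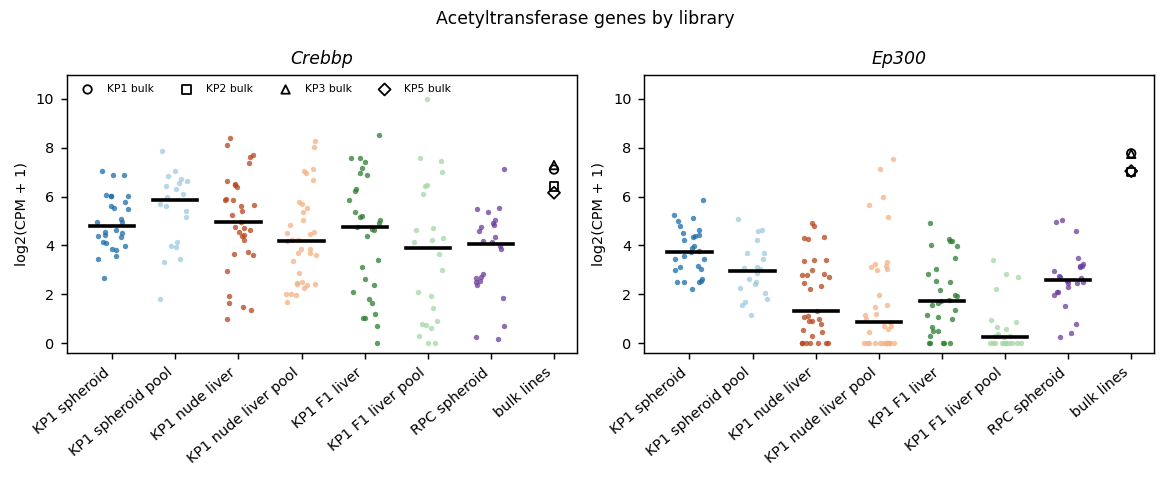
Log2(CPM + 1) of Crebbp and Ep300 in each library (vertical axes) of the 7 captured groups and the 4 bulk lines (horizontal axis). Points are libraries, black lines are group medians, and open symbols are single bulk libraries. Both genes have lower medians in RPC (15.6 and 5.01 CPM) than in KP1 spheroid captures (26.7 and 12.4 CPM), and the Ep300 medians in nude and F1 liver are 1.51 and 2.34 CPM.

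Of 14 listed acetyltransferase genes, all 14 were tested in RPC against KP1, where 0 were higher and 4 lower (median log2 fold change -0.21), beside 10.3% higher and 11.6% lower over all genes. Besides Crebbp and Ep300 these were Hat1, which acetylates new histones (-1.01, adjusted p = 0.0189), and the coactivator gene Ncoa1 (-1.53, adjusted p = 0.0258). In nude liver against spheroids 1 of 13 was higher and 2 lower, under the 34.1% over all genes: Hat1 fell from 176 ± 128 to 61.9 ± 61.0 CPM (-1.84, adjusted p = 0.000286), and Kat6b, a MYST family enzyme gene, rose from 5.19 ± 9.01 to 21.5 ± 53.1 CPM (1.91, adjusted p = 0.0348). In F1 liver against spheroids 0 of 13 were called, and in F1 against nude liver 0 of 11 were higher and 2 lower, Kat6b (-2.54) and Ncoa1 (-2.48), beside 12.6% and 19.2% called over all genes. Ncoa1 had 92.9 ± 412 CPM with a median of 6.46 in nude liver, and 12.3 ± 22.1 CPM with a median of 3.15 in F1 liver. Its fold change thus reflects a nude liver mean far above its median.

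The RPC calls for members differed in how much they rested on single settings. All 4 kept their direction in the 7 other settings plotted, and all 4 were not called against the 9 KP1 spheroid captures with at least 0.1% ERCC, where fewer libraries enter. The values there were 0.91 for E2f1, -1.29 for Ep300, -1.20 for Crebbp and -0.51 for Mdm2. With the replicate number as a block in edgeR, which is not plotted, Ep300 stayed called (-1.80, adjusted p = 0.0289). E2f1 (0.93, adjusted p = 0.0824), Crebbp (-1.33, adjusted p = 0.109) and Mdm2 (-1.26, adjusted p = 0.053) were not called with it. Of the 24 RPC captures in the ERCC fit, 22 had at least 0.1% ERCC and 2 had less.

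**Figure D5:**
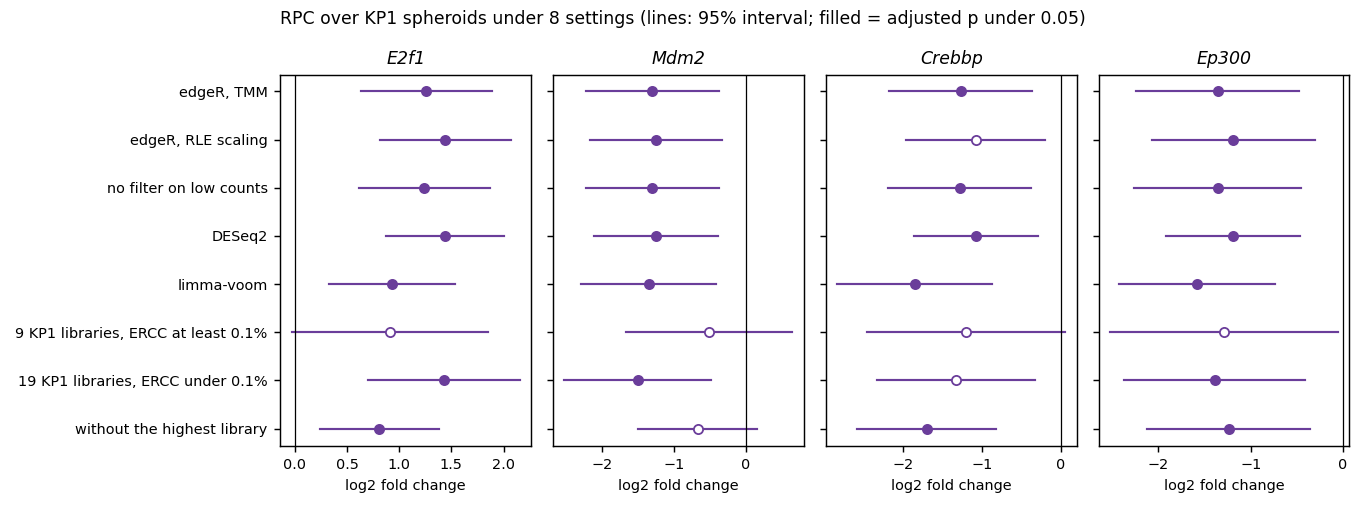
Log2 fold change of RPC over KP1 spheroid captures (horizontal axes) for the 4 called members under 8 settings (vertical axis), with lines for the 95% interval. Filled points have an adjusted p under 0.05. E2f1 stays right of 0, between 0.81 and 1.44, while Mdm2 moves from -1.30 to -0.67 without its highest library.

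The genes next to the deleted loci were compared in RPC and KP1 to see whether a whole stretch differed. Rb1 and Trp53 are lost in both lines by label, so the comparison cannot show an effect of those losses. Only Crebbp and Rbl2 differ between the lines by label. Of the 6 nearest protein-coding genes of Rb1, 4 were tested and 1 was called: Itm2b had a mean of 95.3 ± 81.6 CPM in RPC and 196 ± 113 in KP1, a log2 fold change of -1.47 (SE 0.31, adjusted p = 0.000265). Beside Crebbp, Slx4 (0.16, adjusted p = 0.91) and Trap1 (-0.22, adjusted p = 0.819) were tested and 0 called. Beside Trp53, Wrap53 (0.78, adjusted p = 0.307) and Sat2 (0.21, adjusted p = 0.867) were tested and 0 called. Beside Rbl2, 1 of 4 tested was called, Tox3, with 26.4 ± 22.2 CPM in RPC and 47.0 ± 42.4 in KP1 (-1.16, SE 0.43, adjusted p = 0.0439). With 21.9% of all genes called in this comparison, the counts beside Crebbp and Rbl2 show nothing particular to those loci.

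The spread among 10-cell captures was compared with that among pools, since pools are split from mixed cells and vary mainly by technique. By limma on each library's distance from its group's median log2(CPM + 1), 0 of 9 tested members differed in spheroids, where 0% of all genes were called, 0 of 8 in nude liver, with 0.724% of all genes called, and 0 of 7 in F1 liver, with 1.5% called. At an unadjusted p under 0.05, 510 of 8600 genes passed in spheroids. The largest member difference in spheroids was that of Cdkn2a, 0.44 (95% interval -0.21 to 1.10, adjusted p = 0.889). The wide intervals allow differences in either direction.

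All 10 members were counted together in 6 of 28 KP1 spheroid captures, 2 of 33 from nude liver, 2 of 31 from F1 liver and 6 of 24 from RPC, with medians of 8, 8, 7 and 9 members per capture. In the 4 bulk libraries all 10 were counted. Pathway-wide states of single captures are therefore read from incomplete sets of members.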

How the data were processed

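The authors deposited 1 table of expected counts (estimates of reads per gene) for 199 libraries, of which 89.3% of values are whole numbers and no library scaling is visible. The submitters' processing notes name Bowtie2, RSEM, GRCm38 and GRCh38.p12, with no role, version or annotation release. Of the gene identifiers, 31345 matched GENCODE M21, and 92.6% of these (9 of the 10 members) had the same coordinates, so positions are given as in the table, on GRCm38. Per the labels' protocols, captures were amplified by poly(A) PCR, and no molecular identifiers are named, so precision is that of counting alone.

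Counts were rounded, 92 ERCC rows left out, and CPM computed over the 31581 genes. Groups came from the labels, and all 199 columns were mapped. EdgeR 4.0.16 (TMM, filterByExpr, quasi-likelihood test, robust) in R 4.3.3 was fitted to the 2 groups of each comparison over all genes, with Benjamini-Hochberg adjustment over all genes tested. Spread used limma 3.58.1 on genes averaging 5 CPM or more. Alternatives were RLE scaling, no filter, DESeq2 1.42.0, limma-voom, the replicate number as a block, a hepatocyte score, subsets by ERCC share (0.1%) or Rpl19-ps11 (100 CPM), and for spread a floor of 10 CPM and a pseudocount of 5 CPM in place of 1. Fits without the highest library of a called member, and fits on shared replicate numbers without the block, were chosen after seeing the data. The main edgeR fit, edgeR with a covariate, limma-voom, DESeq2 and the main spread fit were tested on simulated data. The other settings were not.

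The members and gene lists were chosen with earlier results of these data known. Named are the members, up to 3 called genes per list and direction with the smallest adjusted p, the 3 nearest protein-coding genes on each side of Rb1, Trp53, Crebbp, Rbl2 and Cdkn2a, and the 3 genes most like Cdkn2a and Cdkn1a, except that some genes the rule names are not reported here. The E2F letters replaced a first set after that set had been scanned. The first set matched the same 2 member windows and 2.365% of all promoters. No 2 libraries of a group looked like a repeat of 1 library (lowest chi-squared per degree of freedom 29.1).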

Additional observations from a re-analysis of the deposited data

How the results depend on the processing

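The counts of genes called were 2669 (nude liver against spheroids), 924 (F1 against spheroids), 1358 (F1 against nude) and 1881 (RPC), in pools 2054, 840 and 721, and for spread 68 in nude and 131 in F1 liver, and they moved by over 1.5 times as follows. With no filter on low counts there were 8431, 5072, 6294 and 6115 in the same order, and in pools 7888, 5224 and 5857, because more genes were tested. With the hepatocyte score nude liver against spheroids gave 1197, and the pools 1008 (nude), 1284 (F1) and 288 (F1 against nude). Against spheroids with at least 0.1% ERCC, F1 liver gave 174 and the pools 776 (nude) and 22 (F1), with fewer libraries. F1 libraries with low Rpl19-ps11 gave 379 over spheroids and 223 over nude liver, and in pools 1890 and 295. DESeq2 gave 1417 in F1 liver and 1470 and 1089 in F1 pools over spheroids and over nude liver, and limma-voom 1743 in F1 liver and 3081 in RPC. Called spread in nude liver was 34 with the floor of 10 CPM and 8 with the pseudocount of 5 CPM, and in F1 liver 56 with that pseudocount. Other causes were not tested.

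Replicate numbers did not pair libraries: deviations of same-numbered libraries had median correlations near 0. With the replicate block the counts were 887 for F1 against nude liver (367 higher and 520 lower), 1837 and 179 for F1 pools over spheroids and over nude liver, and 31 and 11 for spread in nude and F1 liver. In nude liver pools over spheroids the block gave 898 higher and 2029 lower. On the same libraries without the block, F1 against nude pools gave 415 and F1 spread 14. The block turned Cdkn1a in nude liver to -1.50, Trp53 and Crebbp in F1 liver over spheroids to 0.23 and -0.14, Crebbp and Ep300 in F1 over nude liver to -0.33 and -0.04, Cdkn2a in RPC to 0.16, Ep300 in nude pools to -2.38 (adjusted p = 0.0408), and Crebbp in F1 pools to -1.32 over spheroids and -0.81 over nude liver. It left E2f1 (0.61, 0.84 and 0.93), Crebbp (-1.33) and Mdm2 (-1.26) uncalled and Ep300 in F1 liver called (-2.25, adjusted p = 0.0382). Without the block on the same libraries, E2f1 in nude liver (0.65) and Crebbp in RPC (-1.11) were not called either.

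Other log2 fold changes that reversed, none called unless said, were as follows. In nude liver over spheroids, Rb1 was 0.41 with the hepatocyte score, Mdm2 0.35 and Cdkn1a -0.87 against spheroids with at least 0.1% ERCC, Cdkn1a -1.16 with DESeq2 and -1.77 with limma-voom (called), and Crebbp -0.08 with limma-voom. In F1 liver over spheroids, low Rpl19-ps11 libraries gave E2f1 -0.01, Trp53 0.44 and Cdkn1a 0.57, and high ones Mdm2 0.02. The hepatocyte score gave Cdkn2a -0.42 and Mdm2 0.30, spheroids with at least 0.1% ERCC Mdm2 0.74, and limma-voom Crebbp -0.48. In F1 over nude liver, limma-voom gave E2f1 -0.10 and Crebbp -0.38, low Rpl19-ps11 E2f1 -0.88 and Ep300 -0.29, and Trp53 was -0.04 with DESeq2, -0.27 with the hepatocyte score and -0.31 with high Rpl19-ps11. Trp53 in RPC was -0.11 against spheroids with under 0.1% ERCC. In pools, E2f1 in nude liver was -0.30 with the hepatocyte score, and Crebbp in F1 liver over spheroids -0.38 with DESeq2 and -0.08 with high Rpl19-ps11. The causes were not tested. Depth limits how many captures show Rbl1, Rbl2 or Trp53: at the common depth 22.8 of the nude liver captures would be expected to hold a Trp53 count, against 32 of 33 found.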
